A study of Mus musculus with 6 samples.

Results

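The 36 genes described here encode glucose transporters, the enzymes of glycolysis, lactate dehydrogenase, the monocarboxylate transporters that carry lactate, and the enzymes of the pentose phosphate pathway. They were taken by gene symbol from a table of 54532 genes, were set out in 9 groups by pathway step, and occupied 37 rows, because the symbol Aldoa stands on 2 of them. RNA sequencing had measured 6 libraries of cells labeled as mouse vascular smooth muscle cells. Of these, 3 were labeled as carrying an adenoviral control plasmid (Ad-Con). The other 3 were labeled as carrying an adenoviral overexpression plasmid for pyruvate dehydrogenase kinase 4 (Ad-PDK4). All 6 libraries are labeled WT. Per the study, the cells (MASMCs) were primary cultures of abdominal aorta from wild-type mice aged 10 weeks, and both groups received angiotensin II (Ang II) at 1 µM for 48 h, which the labels do not mention. Cells without Ang II were not analysed here. The study states 3 biological replicates per group. The labels do not say that the 3 libraries came from separate cultures or animals, so p-values measure the spread between these libraries, which may be technical.

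Glycolysis splits glucose into pyruvate in the cytosol. Pyruvate either enters the mitochondria, where pyruvate dehydrogenase makes acetyl-CoA from it, or is reduced to lactate, which leaves the cell through monocarboxylate transporters. PDK4 phosphorylates and inhibits pyruvate dehydrogenase. The pentose phosphate pathway branches off at glucose 6-phosphate, makes NADPH in its oxidative arm, and exchanges sugar phosphates with glycolysis through its non-oxidative arm. Several steps of glycolysis are served by isozymes, products of separate genes that catalyze the same reaction. Smooth muscle cells in culture are known for a high rate of aerobic glycolysis.

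The targeted gene did not follow its label. Pdk4 (chr6:5483351-5496309, GRCm38) was at 9.50, 10.4 and 10.2 FPKM (counted fragments scaled to gene length and library size) in the Ad-Con libraries and at 7.67, 7.41 and 7.38 FPKM in the Ad-PDK4 libraries. It was thus lower in every library labeled Ad-PDK4 (log2 fold change -0.42, SE 0.06, limma adjusted p = 0.00114). Whether the plasmid's own transcripts were counted under Pdk4 is not known. Every direction below is therefore that of the libraries labeled Ad-PDK4 relative to those labeled Ad-Con. The libraries held 17588942 to 21861872 counted reads, and the 10 genes with the most reads took 6.45 to 6.60% of them in the Ad-Con libraries against 4.47 to 4.53% in the Ad-PDK4 libraries.

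Transcripts of the glucose transporter Slc2a1, hexokinase 2, most later enzymes of glycolysis, lactate dehydrogenase A and 2 lactate transporters were higher in the Ad-PDK4 libraries. So were those of Pfkl, Pfkp, Pfkfb3, Tigar and the pentose phosphate enzyme Rpia. Transcripts of muscle phosphofructokinase, Hkdc1, lactate dehydrogenase B and the pentose phosphate enzymes Pgd and Tkt were lower. RNA levels do not measure uptake, flux or transport. Of the 36 genes, 32 had a mean of at least 0.5 FPKM and were tested. With limma on log2(FPKM + 0.1), 16 of the 32 (50%) were higher at an adjusted p below 0.05, where 21.8% of all 13423 tested genes were higher. Another 5 (15.6%) were lower, where 20.8% of all tested genes were lower, and 11 passed in neither direction. The median log2 fold change of the 32 was 0.21, against -0.003 over all tested genes. The groups of 3 libraries did not overlap for 22 of the 32 (68.8%), against 54.3% of all tested genes.

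Most of these differences were smaller than 2-fold. With the study's fold limit of 2 added, Slc16a3 and Gapdh were higher, against 3.95% of all tested genes, and the lowest log2 fold change was -0.87 (Pfkm), so that no member was lower past 2-fold, against 2.68% of all tested genes. The count of 2 fell to 1 without any of the 3 Ad-Con libraries or without Ad-PDK4 1, and to 0 without Ad-PDK4 3. It was also 0 with a pseudocount of 1. The 11 genes that passed in neither direction had 95% intervals of the log2 fold change between -0.42 and 0.36, so that larger differences lay outside their intervals.

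**Figure D1:**
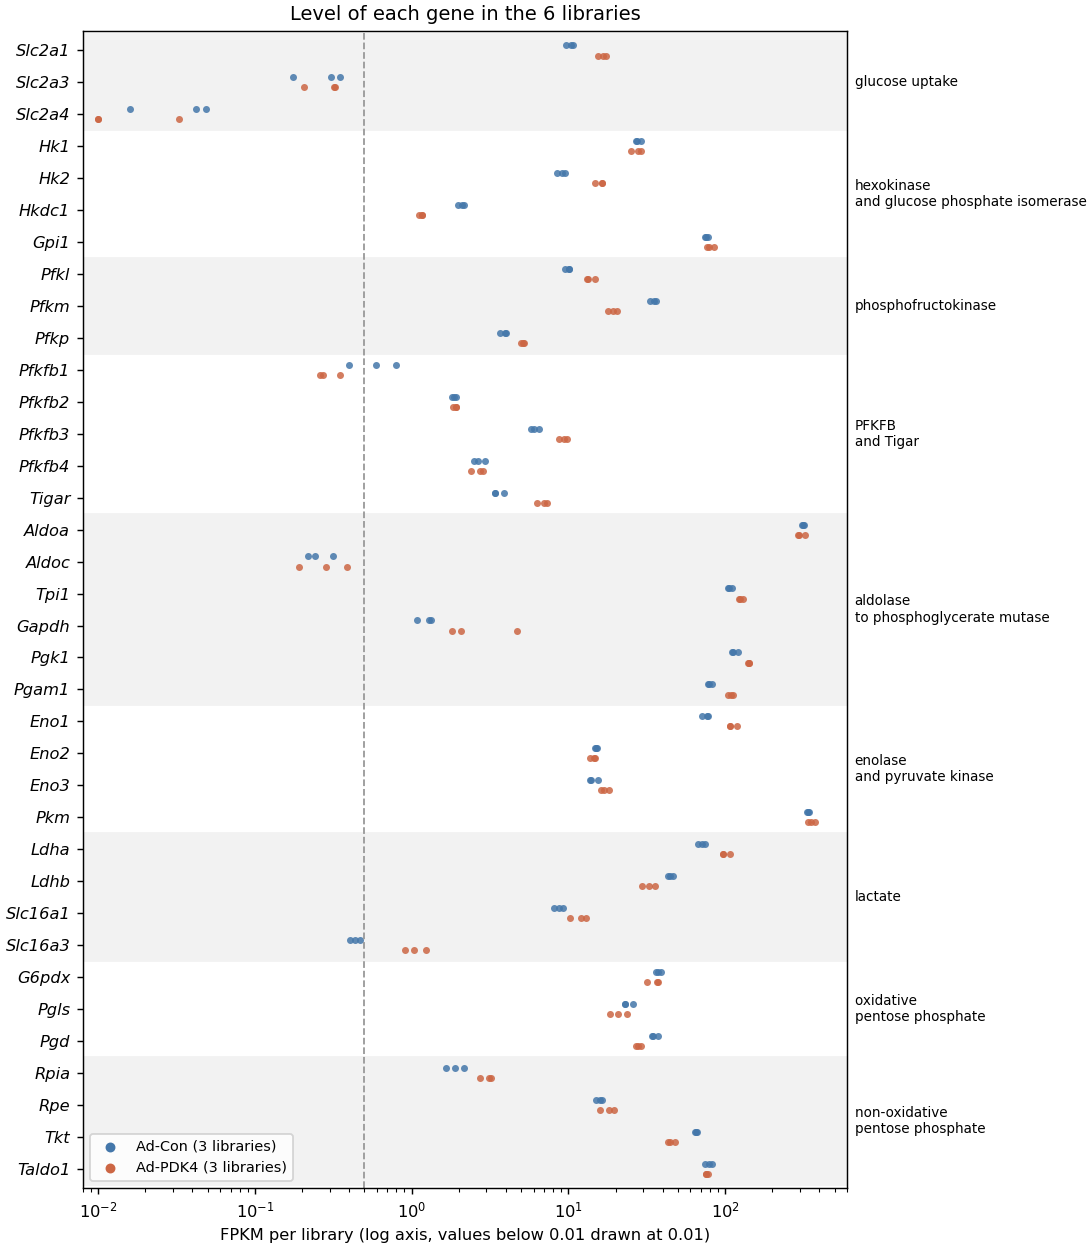
FPKM of the 36 genes in each of the 6 libraries on a log axis (x), in pathway order (y), with blue points for Ad-Con and red points for Ad-PDK4, and a dashed line at the 0.5 FPKM that the mean had to reach for a test. The levels span from Slc2a4, at 0 in 2 libraries, to Pkm and Aldoa at 293 FPKM or more in every library, and the red points lie clear to the right of the blue ones for Slc2a1, Hk2, Pfkfb3, Tigar, Eno1 and Slc16a3 and clear to the left for Pfkm, Hkdc1, Ldhb and Tkt.

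The levels differed widely between steps. FPKM is per length, so genes can be set side by side, although the length the authors divided by covers all exons of a gene and is longer than its main transcript. Pyruvate kinase (Pkm, mean 346 FPKM over all libraries), aldolase A (Aldoa, 309 FPKM), phosphoglycerate kinase (Pgk1, 128 FPKM) and triose phosphate isomerase (Tpi1, 116 FPKM) were the 4 genes above 100 FPKM. Glucose transporters, hexokinases, phosphofructokinases and monocarboxylate transporters were all far lower.

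At glucose uptake, Slc2a1 (GLUT1, the transporter for basal uptake, chr4:119108711-119137983) was at 10.4, 10.7 and 9.72 FPKM in the Ad-Con libraries and at 16.6, 17.3 and 15.4 FPKM in the Ad-PDK4 libraries. The groups did not overlap, and the means of 10.3 ± 0.487 and 16.4 ± 0.946 FPKM (SD, n = 3) gave a log2 fold change of 0.67 (SE 0.07, adjusted p = 0.000137). The other 2 transporters had too little signal for a test. Slc2a3 (GLUT3) had 26 to 52 reads in a library and means of 0.278 and 0.283 FPKM in the Ad-Con and Ad-PDK4 groups. Slc2a4 (GLUT4, the insulin-responsive transporter) had 0 to 3 reads.

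Hexokinases trap glucose as glucose 6-phosphate, and their genes moved apart. Hk2 (the inducible isozyme, chr6:82725025-82774454) was at 8.46, 9.48 and 9.11 FPKM in the Ad-Con libraries and at 14.7, 16.5 and 16.4 FPKM in the Ad-PDK4 libraries. Its log2 fold change was 0.81 (SE 0.07, adjusted p = 7.6e-05). Hkdc1, a less studied member of the family, went the other way, from 2.15, 2.10 and 1.99 FPKM to 1.17, 1.17 and 1.12 FPKM (log2 fold change -0.80, SE 0.11, adjusted p = 0.000996). Neither gene had overlapping groups. Hk1, the constitutive isozyme and the most abundant of the 3, had overlapping groups at 27.8 ± 1.0 and 27.3 ± 2.04 FPKM, with a 95% interval of the log2 fold change from -0.18 to 0.13. Gpi1, glucose phosphate isomerase, was at 74.9, 75.0 and 78.1 FPKM in the Ad-Con libraries and at 79.3, 85.2 and 76.7 FPKM in the Ad-PDK4 libraries, which overlapped (log2 fold change 0.08, adjusted p = 0.267).

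Phosphofructokinase catalyzes the committed step of glycolysis, and its muscle isozyme had the lowest log2 fold change of the 32. Pfkm (chr15:98092589-98132451) was at 33.3, 35.3 and 36.4 FPKM in the Ad-Con libraries and at 19.3, 20.3 and 17.8 FPKM in the Ad-PDK4 libraries. The lowest Ad-Con library stood well above the highest Ad-PDK4 library (log2 fold change -0.87, SE 0.07, adjusted p = 3.4e-05). The liver isozyme Pfkl was higher, at 9.87 ± 0.310 against 13.8 ± 0.892 FPKM (log2 fold change 0.47, adjusted p = 0.00079), and so was the platelet isozyme Pfkp, at 3.86 ± 0.185 against 5.11 ± 0.0811 FPKM (0.40, adjusted p = 0.00324). Exons of Senp1, on the opposite strand, and of Gm26513 overlap 10.7% of the exons of Pfkm, and whether counting used strand is not given in the sources used here.

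The PFKFB enzymes make and break fructose 2,6-bisphosphate, which activates phosphofructokinase, and Tigar breaks it down. Pfkfb3, the form with the strongest kinase activity, was at 6.05, 5.80 and 6.49 FPKM in the Ad-Con libraries and at 8.73, 9.78 and 9.43 FPKM in the Ad-PDK4 libraries (log2 fold change 0.60, SE 0.07, adjusted p = 0.000435). Tigar, a p53-regulated phosphatase (chr6:127085116-127109557), went from 3.43, 3.89 and 3.42 FPKM to 6.32, 7.33 and 7.02 FPKM (0.93, SE 0.09, adjusted p = 0.000123). Both the enzyme that makes the activator and a phosphatase that removes it were thus higher in every Ad-PDK4 library. Pfkfb2 (log2 fold change 0.02, 95% interval -0.22 to 0.25) and Pfkfb4 (-0.03, -0.28 to 0.22) had overlapping groups, and the sign of each changed with the setting. Pfkfb1 had 65, 28 and 43 reads in the Ad-Con libraries and 19, 19 and 31 in the Ad-PDK4 libraries (0.795, 0.397 and 0.591 against 0.260, 0.270 and 0.349 FPKM). Its groups did not overlap, but its mean was below the limit for a test.

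From aldolase to phosphoglycerate mutase, 4 of the 5 tested genes were higher. Aldoa, the exception, was at 311, 319 and 312 FPKM in the Ad-Con libraries and at 295, 322 and 293 FPKM in the Ad-PDK4 libraries, which overlapped (log2 fold change -0.05, 95% interval -0.17 to 0.07, with the opposite sign after quantile normalization). Pgk1, which makes the first ATP of the pathway, was at 112, 110.3 and 120.6 FPKM against 142, 140.0 and 142 FPKM (0.31, SE 0.05, adjusted p = 0.00172). Pgam1, phosphoglycerate mutase, was at 79.6 ± 2.39 against 108 ± 4.24 FPKM (0.45, adjusted p = 0.000279). Tpi1 was at 107 ± 3.46 against 126 ± 3.80 FPKM (0.24, adjusted p = 0.00471). None of these 3 had overlapping groups. The other 2 rows of this stretch, Aldoc (11 to 28 reads in a library) and the second row named Aldoa (1 to 7 reads), were not tested.

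Gapdh, the dehydrogenase often used as a reference gene, stood apart from its neighbors in level and in error. It had 108, 78 and 99 reads in the Ad-Con libraries and 356, 131 and 189 in the Ad-PDK4 libraries, or 1.28, 1.08 and 1.32 against 4.73, 1.81 and 2.07 FPKM, where its neighbors in the pathway, Tpi1 and Pgk1, were above 100 FPKM. The log2 fold change of 1.04 had an SE of 0.34 (adjusted p = 0.0476), and Ad-PDK4 1 lay far above the other two libraries of its group. In 9 of the 15 alternatives the adjusted p was above 0.05, among them the fits without Ad-Con 1 (0.106), Ad-Con 2 (0.127), Ad-Con 3 (0.108) or Ad-PDK4 3 (0.0601), and without Ad-PDK4 1 the log2 fold change was 0.62. Of the Gapdh transcript, 88.0% is shared at 95% identity or more with 81 other annotated genes, 77 of them pseudogenes, which held 1173, 605 and 913 reads in the Ad-Con libraries and 597, 713 and 747 in the Ad-PDK4 libraries. Their part in the level and in the difference was not tested.

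Enolase and pyruvate kinase end the pathway. Eno1, the ubiquitous enolase (chr4:150236721-150248879), was at 76.9, 71.6 and 78.2 FPKM in the Ad-Con libraries and at 108, 119 and 107 FPKM in the Ad-PDK4 libraries (log2 fold change 0.55, SE 0.06, adjusted p = 0.000239). Eno3, the muscle enolase, was at 14.4 ± 0.905 against 17.1 ± 1.03 FPKM (0.24, adjusted p = 0.0231), a call lost without Ad-Con 1 (adjusted p = 0.08), Ad-Con 2 (0.0729) or Ad-PDK4 2 (0.0576) and after quantile normalization (0.0512). Eno2, the neuronal enolase, did not pass the test (-0.07, 95% interval -0.19 to 0.05), although its 3 Ad-PDK4 libraries all lay below the Ad-Con libraries. Pkm, the gene with the highest level of all 36, was at 340, 332 and 343 FPKM in the Ad-Con libraries and at 351, 374 and 338 FPKM in the Ad-PDK4 libraries, which overlapped (0.07, 95% interval -0.05 to 0.18). Its gene-level values do not separate the M1 and M2 splice forms.

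Lactate dehydrogenase and the lactate transporters all passed the test. Ldha, the subunit that favors the reduction of pyruvate (chr7:46841475-46855627), was at 70.8, 67.6 and 74.8 FPKM in the Ad-Con libraries and at 96.3, 107 and 97.0 FPKM in the Ad-PDK4 libraries (log2 fold change 0.49, SE 0.06, adjusted p = 0.000467). Ldhb, the subunit that favors the oxidation of lactate (chr6:142490249-142507957), was lower in every Ad-PDK4 library, at 43.4, 44.5 and 46.3 FPKM against 35.5, 32.8 and 29.5 FPKM (-0.46, SE 0.07, adjusted p = 0.00161). The 2 subunits thus differed in opposite directions. Slc16a1 (MCT1), a transporter of lactate and pyruvate, was at 8.69 ± 0.557 against 11.8 ± 1.38 FPKM (0.43, adjusted p = 0.00819). Slc16a3 (MCT4, the form typical of lactate-exporting cells, chr11:120948480-120960868) had 47, 44 and 39 reads in the Ad-Con libraries and 100, 85 and 146 in the Ad-PDK4 libraries, or 0.434, 0.471 and 0.405 against 1.03, 0.913 and 1.24 FPKM (1.11, SE 0.22, adjusted p = 0.00512). At this low level its log2 fold change depended on the pseudocount and was 0.52 with a pseudocount of 1, still past the test.

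**Figure D2:**
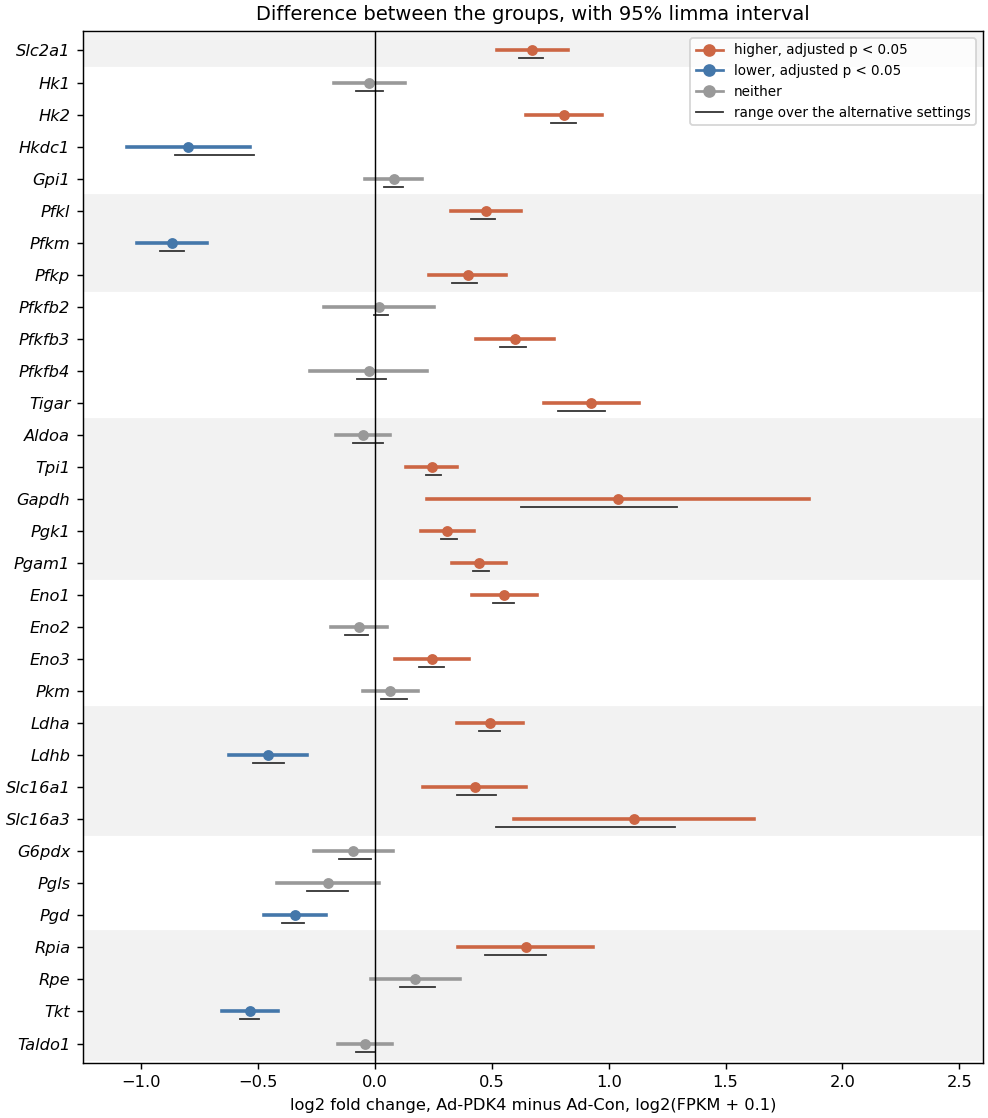
Log2 fold change of the 32 tested genes (x, libraries labeled Ad-PDK4 minus Ad-Con, on the log2(FPKM + 0.1) scale) in pathway order (y), with the 95% limma interval in color and the range over the alternative settings as a thin black line. The 16 genes in red lie right of 0, the 5 in blue (Hkdc1, Pfkm, Ldhb, Pgd, Tkt) lie left of it, and Gapdh has the widest interval, from 0.22 to 1.86.

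Reads of some members could be split with near-identical copies. At 95% identity over 100 bases or more, over 50% of the transcript was shared with other annotated genes for 7 members. Besides Gapdh these were Eno1 (85.6%), Ldhb (76.8%), Pgk1 (68.8%), Pkm (65.5%), Gpi1 (55.3%) and Ldha (55.0%). For Ldha and Ldhb the copies held at most 2 reads in any library, and for Pgk1 4 to 17. For Eno1 they held 220 to 406 reads, beside 6761 to 12712 of Eno1 itself, and for Pkm 552 to 1234, beside 29138 to 37348. For Gpi1 the other genes held 2048 to 2985 reads, beside 8496 to 10925 of Gpi1 itself. The levels of these 7 members are uncertain, and the part of shared reads in their differences was not tested. Pfkp, below the 50% limit, shared 18.0% with a gene of 1656 to 3074 reads, beside 931 to 1487 of Pfkp itself. That gene is not a pseudogene. Exons of Pitrm1, on the opposite strand, overlap 5.6% of the exons of Pfkp, and whether Pitrm1 is the gene that shares the sequence was not checked. Besides Pfkm, Pfkp and Pgls, exons of other genes also overlapped those of Pfkfb2 (19.5%), Rpe (17.9%), Pkm (15.3%), G6pdx (13.6%) and Gpi1 (11.5%). The part of these overlaps was not tested either.

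Of the 7 genes of the pentose phosphate pathway, 1 was higher and 2 were lower, counts near the 21.8% and 20.8% of all tested genes. G6pdx, glucose 6-phosphate dehydrogenase, which opens the oxidative arm, was at 37.2, 36.5 and 39.0 FPKM in the Ad-Con libraries and at 31.6, 37.5 and 36.7 FPKM in the Ad-PDK4 libraries, which overlapped (log2 fold change -0.09, 95% interval -0.26 to 0.08). Pgls, the lactonase, was at 24.0 ± 1.67 against 20.9 ± 2.55 FPKM (-0.20, adjusted p = 0.122), and without Ad-PDK4 2 it passed the test (-0.29, adjusted p = 0.0254). Exons of Fam129c on the same strand overlap 20.6% of those of Pgls. Pgd, the second NADPH-producing enzyme, was lower in every Ad-PDK4 library, at 34.7, 34.3 and 37.5 FPKM against 27.8, 29.1 and 26.9 FPKM (-0.34, SE 0.06, adjusted p = 0.00209).

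In the non-oxidative arm, the enzyme that makes ribose 5-phosphate was higher and transketolase was lower. Rpia, the ribose 5-phosphate isomerase, was at 2.15, 1.65 and 1.89 FPKM in the Ad-Con libraries and at 3.11, 3.21 and 2.71 FPKM in the Ad-PDK4 libraries (log2 fold change 0.64, SE 0.13, adjusted p = 0.00447). Tkt, transketolase, which returns pentose phosphates to glycolysis (chr14:30548359-30574720), was at 65.7, 64.6 and 66.4 FPKM against 44.3, 47.9 and 43.5 FPKM (-0.54, SE 0.05, adjusted p = 0.00013). Neither gene had overlapping groups. Rpe, the epimerase, was at 15.8 ± 0.814 against 17.8 ± 1.83 FPKM (0.17, adjusted p = 0.13), and without Ad-PDK4 2 it passed (0.26, adjusted p = 0.0218). Taldo1, transaldolase, was at 82.2, 74.9 and 78.7 FPKM against 75.5, 77.9 and 75.3 FPKM, which overlapped (-0.04, 95% interval -0.16 to 0.07).

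**Figure D3:**
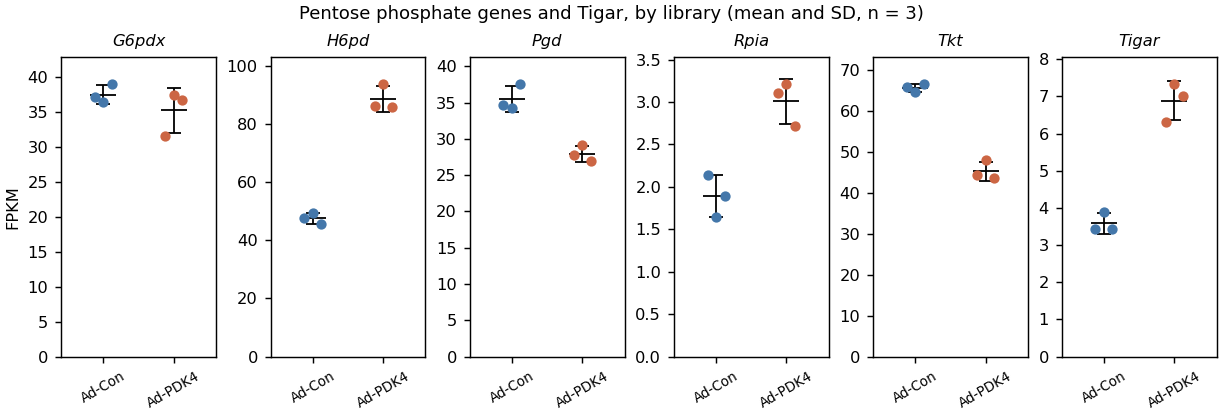
FPKM (y, from 0, a separate scale for each gene) of G6pdx, H6pd, Pgd, Rpia, Tkt and Tigar in each library, with blue points for Ad-Con, red points for Ad-PDK4, and the mean and SD of 3 libraries in black. The groups overlap for G6pdx, while H6pd (mean 47.6 against 88.7 FPKM), Rpia and Tigar are higher and Pgd and Tkt lower in every Ad-PDK4 library.

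Isozyme composition was compared within each library, as each gene's share of its family's FPKM, which does not depend on scaling between libraries. Pfkm gave 71.7, 71.6 and 72.2% of phosphofructokinase FPKM in the Ad-Con libraries and 51.0, 50.5 and 49.5% in the Ad-PDK4 libraries. Pfkl took 20.3 ± 0.279% against 36.2 ± 0.777%, and Pfkp 7.93 ± 0.0933% against 13.5 ± 0.635%. Muscle phosphofructokinase was thus still the leading isozyme in the Ad-PDK4 libraries, by a smaller margin. The Ldha share of lactate dehydrogenase FPKM was 62.0, 60.3 and 61.7% against 73.1, 76.5 and 76.7%. Hk1 gave 71.8, 71.4 and 71.1% of hexokinase FPKM against 63.5, 62.3 and 58.9%, while Hk2 took 23.2 ± 0.650% against 35.8 ± 2.40%.

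The leading isozyme's share was higher in 2 further families and lower in 1. Pfkfb3 gave 54.2 ± 2.01% of PFKFB FPKM in the Ad-Con libraries and 65.8 ± 1.61% in the Ad-PDK4 libraries. Eno1 gave 72.0 ± 0.770% of enolase FPKM against 78.0 ± 0.675%. Slc16a1 gave 95.2 ± 0.313% of monocarboxylate transporter FPKM against 91.7 ± 1.09%. In these 6 families the groups did not overlap, which is the extreme of a two-sided exact permutation test, whose smallest p with 3 against 3 libraries is 0.1 (0.133 after adjustment over 8 families), so the design cannot reach 0.05. Slc2a1 (97.0 ± 0.813% against 98.2 ± 0.367% of glucose transporter FPKM) and Aldoa (99.9% of aldolase FPKM in both groups) had overlapping groups, with exact permutation p of 0.2 and 0.7. Counted as shares of reads, the Ldha difference was 9.61 percentage points against 14.1 in FPKM, and that of Slc2a1 2.09 against 1.2.

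**Figure D4:**
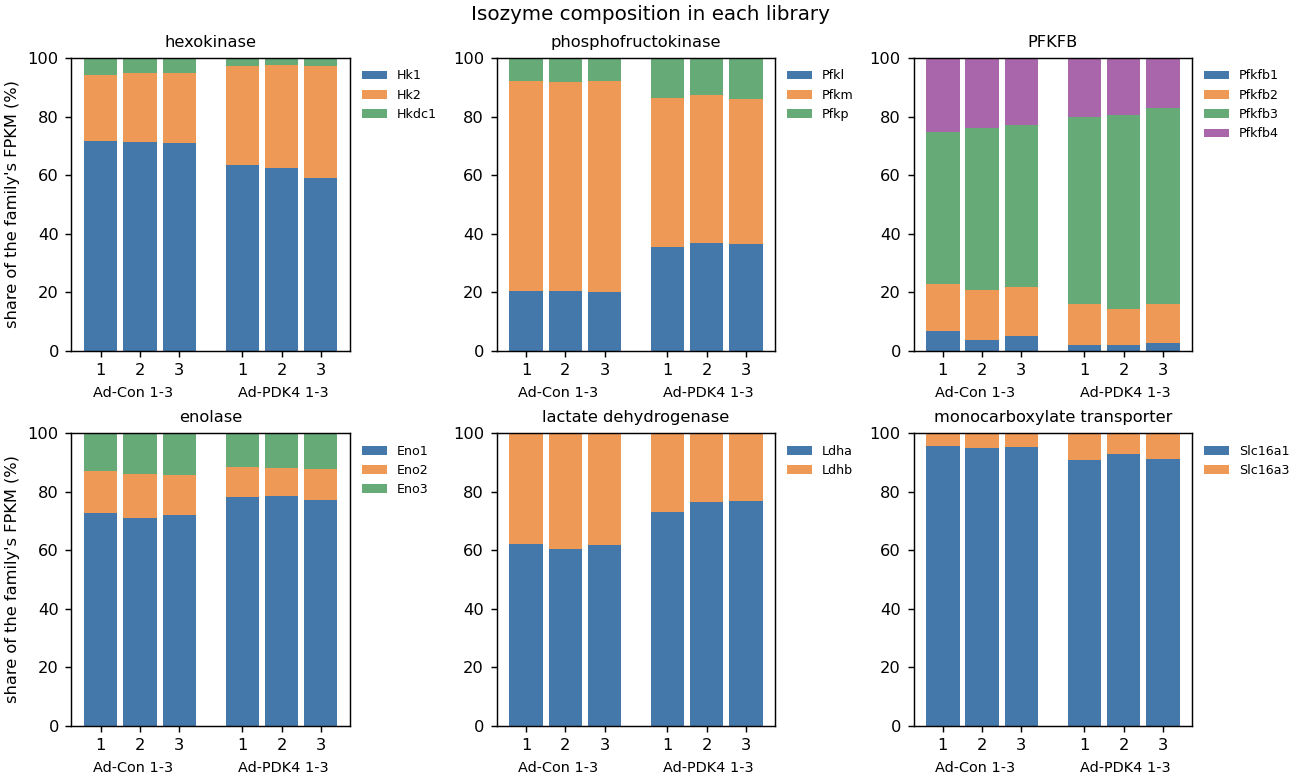
Share of each gene in the summed FPKM of its family (y, %, each bar adding to 100) in the 3 Ad-Con and 3 Ad-PDK4 libraries (x) for 6 families. Pfkm goes from 71.6% or more of its family to between 49.5 and 51.0%, Ldha goes from at most 62.0% to at least 73.1%, and Slc16a1 stays above 90% in all 6 libraries.

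Summed over isozymes, 6 of the 8 families were higher in every Ad-PDK4 library and phosphofructokinase was lower, with no test run on the sums. The summed FPKM of the 3 hexokinases was 38.9 ± 1.46 in the Ad-Con libraries and 44.4 ± 2.16 in the Ad-PDK4 libraries. For lactate dehydrogenase it was 116 ± 4.70 against 133 ± 6.49, and for enolase 105.0 ± 4.00 against 142 ± 7.73. Phosphofructokinase went the other way, at 48.7 ± 2.06 against 38.0 ± 2.12 FPKM, since the higher Pfkl and Pfkp did not make up for Pfkm. Monocarboxylate transporters summed to 9.13 ± 0.575 against 12.8 ± 1.47 FPKM and the PFKFB genes to 11.3 ± 0.672 against 14.2 ± 0.546 FPKM. Among the 8 families only the sum of aldolase had overlapping groups (315 ± 4.36 against 304 ± 15.9 FPKM). The members' joint share of all FPKM was 0.522 ± 0.0106% in the Ad-Con libraries and 0.576 ± 0.0209% in the Ad-PDK4 libraries, a difference of 0.054 percentage points with no overlap (exact permutation p = 0.1). Without the 7 members that share sequence with other genes it was 0.014 percentage points.

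Of 57 genes of neighboring pathways, 35 were tested, 7 were higher and 10 were lower, with a median log2 fold change of -0.02. These counts lie near the shares over all tested genes (21.8% higher and 20.8% lower), so they say nothing particular about these pathways. H6pd carries out the opening reactions of the oxidative pentose phosphate arm in the endoplasmic reticulum. It was at 47.6, 49.5 and 45.6 FPKM in the Ad-Con libraries and at 86.3, 93.7 and 86.0 FPKM in the Ad-PDK4 libraries (0.90, SE 0.06, adjusted p = 1.25e-05). Among the pentose phosphate members themselves the highest log2 fold change was that of Rpia, at 0.64, and the difference between the 2 genes was not tested. Txnip, an inhibitor of glucose uptake, was lower, at 25.3 ± 1.99 against 16.9 ± 0.438 FPKM (-0.58, adjusted p = 0.00031). Shpk, which makes sedoheptulose 7-phosphate, was lower (-0.46, adjusted p = 0.0289), a call lost without Ad-Con 1 (0.0637), Ad-PDK4 2 (0.0781) or Ad-PDK4 3 (0.0765). Emb, a partner protein of monocarboxylate transporters, was higher (0.46, adjusted p = 0.0474), a call lost without any one of Ad-Con 1 to 3, Ad-PDK4 1 or Ad-PDK4 3 (0.0854 to 0.146). Bsg, the main partner of MCT1 and MCT4, was at 648 and 681 FPKM in the Ad-Con and Ad-PDK4 groups, which overlapped.

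Among 10 tested genes of glycogen and hexose entry, 3 were higher and 2 lower, again near the shares over all tested genes. Mpi, which links mannose to fructose 6-phosphate, was at 6.89 ± 0.265 against 10.4 ± 0.760 FPKM (log2 fold change 0.58, adjusted p = 0.000484), and the phosphoglucomutase Pgm2 was also higher (0.29, adjusted p = 0.00793). The glycogen phosphorylase Pygb was lower (-0.37, adjusted p = 0.00101). Of 6 tested genes of glycerol phosphate and NADPH metabolism, 1 was higher and 3 were lower. Idh1, a cytosolic source of NADPH, was at 122 ± 7.91 against 83.2 ± 3.67 FPKM (-0.55, adjusted p = 0.000271), and the mitochondrial glycerol phosphate dehydrogenase Gpd2 was lower (-0.41, adjusted p = 0.00216). Of the malate-aspartate shuttle, Got1 was higher (0.22, adjusted p = 0.0095) and Mdh1 was lower (-0.21, adjusted p = 0.0127). Of 4 tested glucose transporters outside the 36, Slc2a8 was lower (-0.38, adjusted p = 0.0169), a call lost without Ad-Con 1 (0.0596), Ad-PDK4 1 (0.0608) or Ad-PDK4 3 (0.0513). Of 14 isozymes of other tissues, such as liver pyruvate kinase (Pklr), 5 had 0 reads in every library and 3 were tested, with adjusted p between 0.292 and 0.583.

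Promoters of members that moved are shown because short sequence words of known regulators of glycolysis can be looked for in them. The search covered the 250 bases before each RefSeq start (GRCm38.p6), found for 34 of the 36 genes (any listed start of a gene counted), and looked on both strands for ACGTG, the core of the hypoxia response element, and for CACGTG, an E-box, which contains the core. The core occurred before 12 of the 34 members (35.3%), against 18.5% of 27025 genes and 25.4% of the 9400 tested genes with a promoter. It occurred before 8 of the 16 higher members (50%), 1 of the 5 lower members (20%) and 3 of the 11 that passed in neither direction (27.3%), while over all tested genes the higher (25.8%), lower (24.9%) and other genes (25.4%) had like shares. CACGTG occurred before 14.7% of the members and 10.1% of the tested genes. A match describes these letters only. For Pgam1, Eno3 and Taldo1 the bases just after the listed start were not found in an annotated transcript of the gene. Pgam1 is among the 8 higher members with the core. For some genes with several listed starts, Ldha among them, only part of the starts passed this check. The promoters below are those of members with a single listed start and at least 5 FPKM that had the largest differences in each direction, written 5′ to 3′ on the strand of the gene, with ACGTG or its complement CACGT in capitals. Tigar lies at chr6:127109553-127109802 (minus strand), Hk2 at chr6:82774455-82774704 (minus), Slc2a1 at chr4:119108495-119108744 (plus), Tkt at chr14:30548881-30549130 (plus, inside the gene's span in the deposited table) and Ldhb at chr6:142507958-142508207 (minus). Hk2 had 2 matches and Slc2a1 had 1. Tigar, the higher gene with the largest difference of the set, had 0, as did Tkt and Ldhb, the lower genes.
Tigar: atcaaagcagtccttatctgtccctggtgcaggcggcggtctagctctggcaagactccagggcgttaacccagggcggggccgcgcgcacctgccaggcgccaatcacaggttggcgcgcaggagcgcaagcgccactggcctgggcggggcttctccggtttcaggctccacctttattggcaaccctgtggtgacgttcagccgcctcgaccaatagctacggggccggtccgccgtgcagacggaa
Hk2: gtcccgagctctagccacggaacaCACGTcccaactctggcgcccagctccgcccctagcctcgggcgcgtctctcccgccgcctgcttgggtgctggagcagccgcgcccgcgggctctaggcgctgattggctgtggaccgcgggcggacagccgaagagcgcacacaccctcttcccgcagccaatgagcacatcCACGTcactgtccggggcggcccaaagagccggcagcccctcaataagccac
Slc2a1: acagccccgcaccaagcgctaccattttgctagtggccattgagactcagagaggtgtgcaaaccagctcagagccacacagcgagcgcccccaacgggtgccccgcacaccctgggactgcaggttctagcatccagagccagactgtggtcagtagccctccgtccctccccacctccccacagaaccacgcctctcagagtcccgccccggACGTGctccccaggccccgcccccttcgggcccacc
Tkt: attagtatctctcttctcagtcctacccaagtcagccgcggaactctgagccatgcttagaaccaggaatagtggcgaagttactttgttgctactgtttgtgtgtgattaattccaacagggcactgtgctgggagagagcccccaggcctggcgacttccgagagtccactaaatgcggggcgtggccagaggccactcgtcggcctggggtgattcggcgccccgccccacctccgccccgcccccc
Ldhb: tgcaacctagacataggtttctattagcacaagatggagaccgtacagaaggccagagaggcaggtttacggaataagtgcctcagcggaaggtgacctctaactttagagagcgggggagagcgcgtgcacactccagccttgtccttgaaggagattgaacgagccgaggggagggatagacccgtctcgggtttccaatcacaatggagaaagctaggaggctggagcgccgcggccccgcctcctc

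The labeled cell type was checked against marker genes. Of 12 contractile smooth muscle genes, 5 were tested, 2 were lower (Acta2, at 78.0 ± 0.950 against 36.2 ± 2.40 FPKM, and Tpm2) and 1 was higher (Cald1), and their summed FPKM was 173 in each Ad-Con library and 135 to 145 in the Ad-PDK4 libraries. The defining gene Myh11 was near 0 in both groups (0.0142 and 0.0456 FPKM), as was Myocd. Tagln (0.341 and 0.292 FPKM), Cnn1 (0.466 and 0.247 FPKM), Mylk (0.756 and 0.123 FPKM), Des and Actg2 were also too low for a test. These low levels leave a contractile identity of the cells unsettled. Of 8 fibroblast genes, 7 were tested, 5 were lower (among them Col1a1, at 1055 ± 42.4 against 435 ± 49.6 FPKM) and 1 was higher (Dcn), with sums of 1620 to 1760 against 844 to 929 FPKM. Of 8 macrophage genes, 3 were tested, 1 was higher (Cd14) and 1 lower (Cd68), with sums of 27.8 to 30.9 against 24.7 to 27.5 FPKM, and Ptprc, Tyrobp and C1qa were at 0 in every library. Of 8 endothelial genes, 1 was tested and did not pass, with sums of 0.617 to 0.798 against 0.885 to 1.18 FPKM, and Cldn5, Emcn and Tie1 were at 0. Over all tested genes, 21.8% were higher and 20.8% were lower. Summed FPKM of the contractile and of the fibroblast list was lower in every Ad-PDK4 library, while single genes of both lists went either way. The part of these genes in the differences of the metabolic genes was not tested. In bulk libraries fewer cells of a type and less RNA per cell cannot be told apart.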

How the data were processed

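The authors deposited FPKM per gene and library, without pooling. The submitters' processing notes name CASAVA 1.8, fastp, HISAT2 2.0.5, featureCounts 1.5.0-p3 and DESeq2 1.20.0. They give GRCm39 as the genome, but 98.3% of 54495 matched genes had the coordinates of GRCm38 (GENCODE release M21), which are used here. The labels name a SMARTER kit, the study's methods a NEBNext Ultra kit with paired-end sequencing, and strand is not given in the sources used here. FPKM times gene length gave whole reads (100% of values, within 0.01 reads) in every library, so reads could be recovered, and the authors' values had been scaled by median-of-ratios size factors. Comparison of recovered reads found no pair of libraries that were the same.

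Log2(FPKM + 0.1) was tested with limma 3.58.1 (R 4.3.3, trend and robust) over the 6 libraries without covariates, with Benjamini-Hochberg adjustment over the 13423 genes with a mean of at least 0.5 FPKM. The script was tested on simulated data. No count model was the main test, since FPKM is not a count. Shares were compared by two-sided exact permutation tests. Transcripts were compared with blastn 2.17.0. Promoters came from RefSeq. Of 36 members, 32 were tested.

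Values in every library were printed for members called with an absolute log2 fold change of at least 0.5, the highest member of each of the 9 groups, Slc2a1, Pgk1, Gapdh, Pdk4, and members under the 0.5 FPKM limit whose groups did not overlap. In neighboring lists, up to 2 genes per direction were named, and some genes of these lists are not reported here by name. Values by library of Ldhb and Pgd, and the names Bsg, Mdh1, Pklr and those of marker genes lie outside this rule and were picked with their values in view. The members, lists and alternatives were chosen with earlier results of these data known. Summed FPKM per step was compared under 2 alternatives added after seeing the data. The 16 alternatives to the test were a pseudocount of 1 or 0.01, no filter, a minimum of 5 FPKM, TPM with or without mitochondrial genes, quantile normalization, no trend and no robust option, a block for replicate number, voom with limma on recovered reads, and each library left out in turn.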

Additional observations from a re-analysis of the deposited data

How the results depend on the processing

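The counts of members higher (14 to 16 when 1 library was left out) and lower (5 to 6) stayed within 1.5 times the counts given under all 16 alternatives, as did those of neighboring genes (5 to 7 higher and 7 to 10 lower when 1 library was left out). The number higher past 2-fold (2) was 0 with a pseudocount of 1 or a minimum of 5 FPKM, 1 without a filter, with TPM without mitochondrial genes, without trend and robust or with limma-voom, and 0 to 2 when 1 library was left out. The median log2 fold change (0.21) was 0.08 without a filter, when members with few reads enter, 0.17 at a minimum of 5 FPKM, 0.25 with TPM, 0.16 with quantile normalization, and 0.18 to 0.24 when 1 library was left out. The sign turned for Hk1 with TPM (0.017) and without Ad-Con 2 or Ad-PDK4 3 (range without 1 library -0.072 to 0.035), for Pfkfb4 with TPM (0.013) and without Ad-Con 1 or Ad-PDK4 3 (-0.078 to 0.047), for Pfkfb2 without Ad-Con 2 (-0.006 to 0.043) and for Aldoa with quantile normalization (0.035), none of which passed the test in either form, and the cause was not tested. Of the share differences in percentage points, that of all members was 0.014 without the 7 members that share sequence. As shares of reads those of Slc2a1 (2.09), Eno1 (5.07) and Ldha (9.61) moved by more than 1 SD, and that of Aldoa ranged from -0.0326 to 0.00353 when 1 library was left out.

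With the replicate number as a block, 16 members were higher and 6 lower, and 2759 and 2626 of all tested genes instead of 2928 and 2798. Pgls was then called (adjusted p = 0.0397) and Emb was not (0.0896). Same-numbered libraries did not deviate together (correlations -0.046, -0.031 and -0.001), and no library correlated best with its own number. Such correlations, from 3 libraries per group centered on their group mean, cannot tell whether same-numbered libraries share an origin. Pgls was also called with quantile normalization (0.0439) and limma-voom (0.0357). Slc2a3, Slc2a4, Pfkfb1 and Aldoc had too low a level for a test at this depth. Step sums kept their direction with TPM and without any 1 library.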
